A study of Mus musculus with 24 samples.

Results

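The 7 miRNA of heart and skeletal muscle on the mouse panel were mmu-miR-1, mmu-miR-133a, mmu-miR-133b, mmu-miR-206, mmu-miR-208a, mmu-miR-208b and mmu-miR-499 (written below without the species prefix), chosen by name as 7 of the 566 mouse miRNA probes. They were followed in plasma of 24 male C57BL/6J mice, an inbred strain, aged 20 weeks, with 8 mice in each of 3 groups. Control mice breathed filtered air, and the other mice inhaled particles, at 250 µg per cubic meter by the labels (the methods state a somewhat higher mass), that carried environmentally persistent free radicals (EPFR), with fewer radicals on the particles in the group named EPFR lo than in the group named EPFR. All 3 groups were treated for 4 h a day over 5 days, each mouse was assayed alone, and about 10 ng of RNA purified from 200 µL of plasma was counted on the NanoString nCounter, which tags each miRNA and counts single color-coded probes without amplification. Only males of a single strain were measured, so the values describe those mice alone.

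Striated muscle is the main source of these miRNA, and they are often called myomiRs. miR-1 and miR-133a are made together in heart and skeletal muscle, miR-206 and miR-133b together in skeletal muscle, and miR-208a, miR-208b and miR-499 lie in introns of the myosin heavy chain genes Myh6, Myh7 and Myh7b. When heart or skeletal muscle fibers are injured, myomiRs leak into the blood, where they are used as markers of that injury. The work asked which miRNA circulate in plasma after EPFR inhalation, and these probes read the muscle component of that profile.

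The mature strands of 5 of the 7 members were found in RefSeq (GRCm38.p6) and are shown because members that share a seed, bases 2 to 8 from the 5′ end and printed in capitals, can bind the same targets. The panel names give no arm, and the strand shown is the one each name has usually stood for. For miR-1 and miR-133a only the names are given.
miR-206-3p: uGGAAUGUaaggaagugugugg
miR-133b-3p: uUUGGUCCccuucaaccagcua
miR-208a-3p: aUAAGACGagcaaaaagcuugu
miR-208b-3p: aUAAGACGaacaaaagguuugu
miR-499-5p: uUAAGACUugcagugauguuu

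miR-208a-3p and miR-208b-3p have the same seed and matched at 19 of 22 positions, differing by G10A, A16G and C18U, with the base of miR-208a-3p first and positions counted from the 5′ end. miR-499-5p matched miR-208a-3p at 6 of 7 seed positions, with the seed difference G8U. Neither miR-206-3p nor miR-133b-3p shared its seed with another of the 5 strands shown, and these matched each other at 4 of 22 positions. Mir206 (chr1:20679010-20679082) and Mir133b (chr1:20682769-20682887) are 3686 bases apart, and Mir208a (chr14:54949060-54949142) and Mir208b (chr14:54975700-54975776) lie inside Myh6 and Myh7, 26557 bases apart. Mir499 (chr2:155622880-155622958) lies inside Myh7b. Mir1a-1 (chr2:180389048-180389124) and Mir133a-2 (chr2:180398379-180398482) are separated by 9254 bases, and a further copy of each lies elsewhere in the mouse genome. As background, miR-1 shares its seed with miR-206 and miR-133a with miR-133b, and whether their probes shared signal was not tested.

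Mouse miRNA counts summed to 8418 to 30483 per mouse, and most members sat in the background of the assay. The 8 negative control probes, which match no RNA, averaged 17.3 counts, and the highest of them reached 21 to 47 counts depending on the mouse. A miRNA counted as above background when its mean raw count over all mice passed 34.1, which lies 2 SD over the average negative control. By that rule 41 of 566 miRNA were above background, among them miR-1 (mean 44.7, rank 30 by count) and miR-208a (37.5, rank 37). The mean of miR-1 passed that limit only with EPFR mouse 3 (387 counts), and its median over all mice was 26.0. miR-133a (18.8), miR-499 (16.9), miR-206 (13.3), miR-133b (13.0) and miR-208b (6.08) were not, and the 33 probes for viral miRNA averaged 13.9. Plasma has no cells of its own. By the same rule 7 of 10 red blood cell, 2 of 5 platelet, 5 of 7 leukocyte, 1 of 4 liver and 0 of 2 smooth muscle markers were above background. EPFR mouse 3 stood apart from all others in miR-1 and miR-133a, so results that rest on it are given with and without it.

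**Figure D1:**
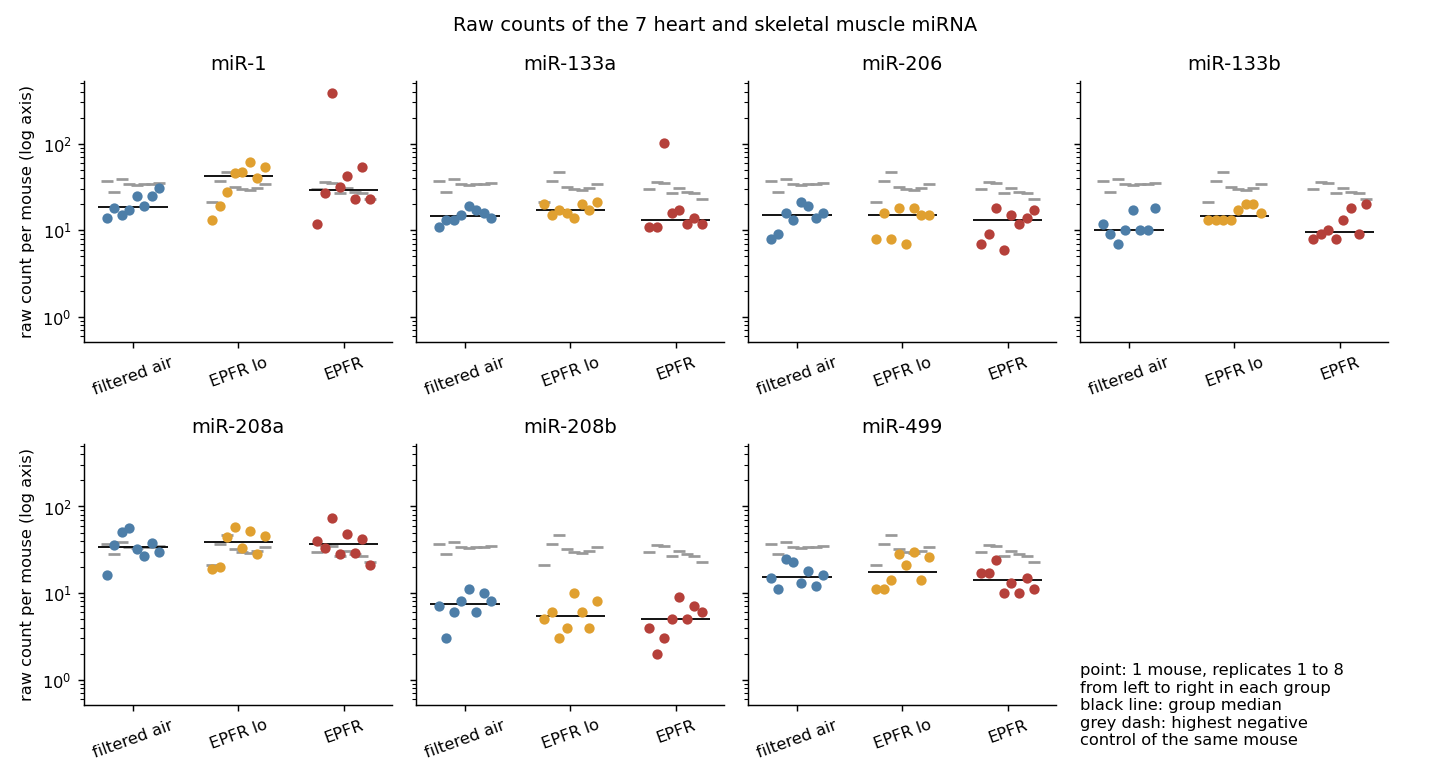
Raw counts (log axis) of the 7 members in the 8 mice of each group, with black lines at group medians and a gray dash at the highest negative control of the same mouse. EPFR mouse 3 lies far above the rest for miR-1 (387 counts) and miR-133a (101 counts), while miR-206, miR-133b and miR-208b lie below the highest negative control in all 24 mice.

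To discern changes in the members, counts were scaled by a factor per mouse from its positive controls and housekeeping probes and tested with edgeR over all 566 miRNA. In EPFR against filtered air 1 of the 7 members, miR-1, passed an adjusted p of 0.05, where 0.707% of all miRNA were called. In EPFR lo against filtered air 0 of 7 members passed beside a background of 0.707%, and in EPFR against EPFR lo 0 of 7 passed beside 0.177%. At an unadjusted p under 0.05 in edgeR, 2 members were higher in EPFR than in filtered air, 1 in EPFR lo than in filtered air and 1 in EPFR than in EPFR lo, and 0 were lower in each comparison. Over all 566 miRNA 5.12%, 4.59% and 2.47% had such a p, in either direction. The members were miR-1 and miR-133a in EPFR against filtered air, and miR-1 in the other comparisons. Without EPFR mouse 3 the log2 fold changes in EPFR against filtered air were 0.72 for miR-1 and -0.04 for miR-133a. For miR-1 in EPFR against EPFR lo it was -0.23 without that mouse. The median log2 fold change of the 7 members was 0.16 in EPFR beside -0.09 over all 566 miRNA, and 0.34 in EPFR lo beside 0.11. EPFR and EPFR lo mice were compared with the same filtered air mice, so their values are not independent.

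**Figure D2:**
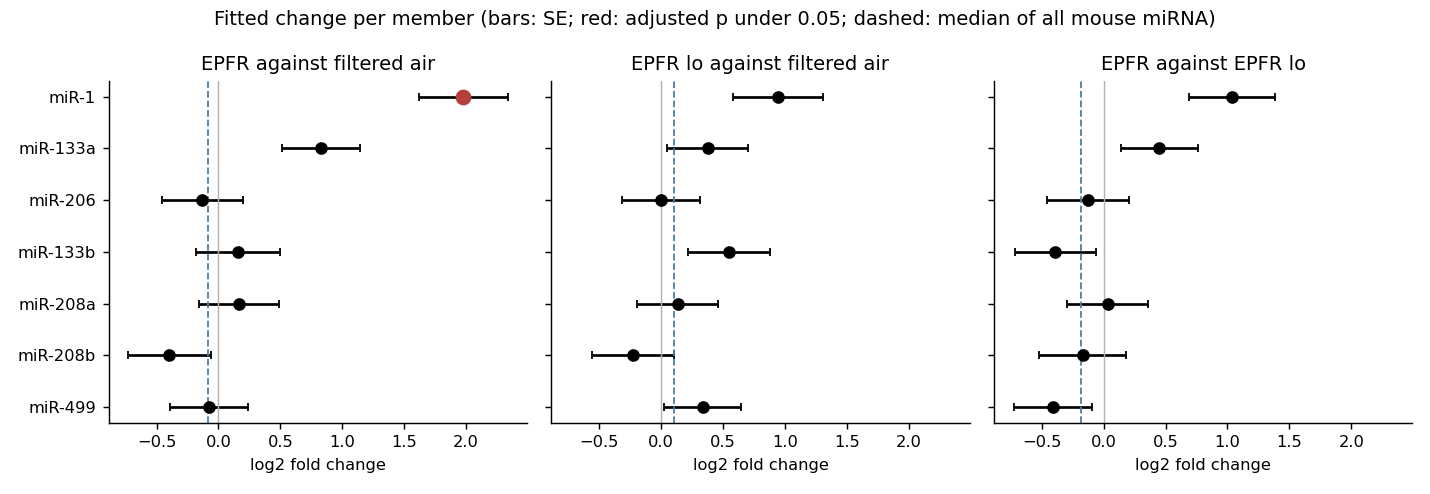
Log2 fold changes of the members in the 3 comparisons (points; bars, standard error from edgeR), with the passing value in red and a dashed line at the median of all 566 miRNA. miR-1 in EPFR against filtered air (1.98) is the value that passed, and the other 6 members lie between -0.41 and 0.83 in all panels.

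miR-1, the most abundant miRNA of heart muscle and a repressor of growth and cell cycle genes in muscle cells, had higher median counts in both particle groups than in filtered air. Raw counts in filtered air mice ran from 14 through a median of 18.5 to 31. In EPFR lo mice they ran from 13 through 43 to 61, and in EPFR mice from 12 through 29.5 to 387. The groups overlapped at their low ends, and most of the top values belonged to particle-exposed mice. Counts of miR-1 exceeded the mouse's own highest negative control in 0 of 8 filtered air mice, 5 of 8 EPFR lo mice and 4 of 8 EPFR mice. These raw counts were not scaled, and detection over all 566 miRNA also differed. Per mouse, 14 to 52 miRNA in filtered air, 19 to 76 in EPFR lo and 19 to 70 in EPFR lay 2 SD over the mean of its negative controls.

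Scaled counts of miR-1 averaged 21.5 ± 8.49 in filtered air mice (mean ± SD, n = 8), 40.8 ± 17.3 in EPFR lo mice (n = 8) and 83.7 ± 138 in EPFR mice (n = 8). The EPFR mean carried an SD larger than itself, and without mouse 3 it was 35.5 ± 21.2 (n = 7). In edgeR miR-1 rose in EPFR by 1.98 on the log2 scale (adjusted p = 2.66e-05, standard error 0.36), and 7 of its 8 mice exceeded the median of the controls. Leaving out EPFR mouse 3 lowered the log2 fold change to 0.72 (adjusted p = 0.994, edgeR). The two-sided exact permutation test of mean log2 scaled counts gave p = 0.0867 with all mice and 0.170 without that mouse, for the single miRNA and without adjustment. The call in edgeR thus rested on that mouse, and the permutation test did not pass with or without it.

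In EPFR lo mice the level of miR-1 was more even. All 8 EPFR lo mice were above the filtered air median in scaled counts, and 4 of 8 were above the highest filtered air mouse. EPFR lo mouse 1 passed the median only by its factor of 1.66, since its 13 raw counts were below the lowest filtered air mouse (14). EPFR lo mice 1, 2 and 4 and filtered air mouse 2 carried that factor, which was set by the floor of the housekeeping subtraction. The log2 fold change was 0.94 (standard error 0.36, adjusted p = 0.420, edgeR), which did not pass over 566 miRNA. The exact permutation test of miR-1 alone, on these scaled counts, gave p = 0.00668, two-sided and unadjusted over miRNA. With any of the 24 mice left out the log2 fold change stayed between 0.77 and 1.05 (adjusted p 0.163 to 0.997, edgeR). DESeq2, listed as an alternative, gave 0.88 with an adjusted p of 0.00806. EPFR exceeded EPFR lo by 1.03 on the log2 scale (standard error 0.35, adjusted p = 0.430, edgeR), and without EPFR mouse 3 the sign turned, to -0.23 (adjusted p = 0.941, edgeR).

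**Figure D3:**
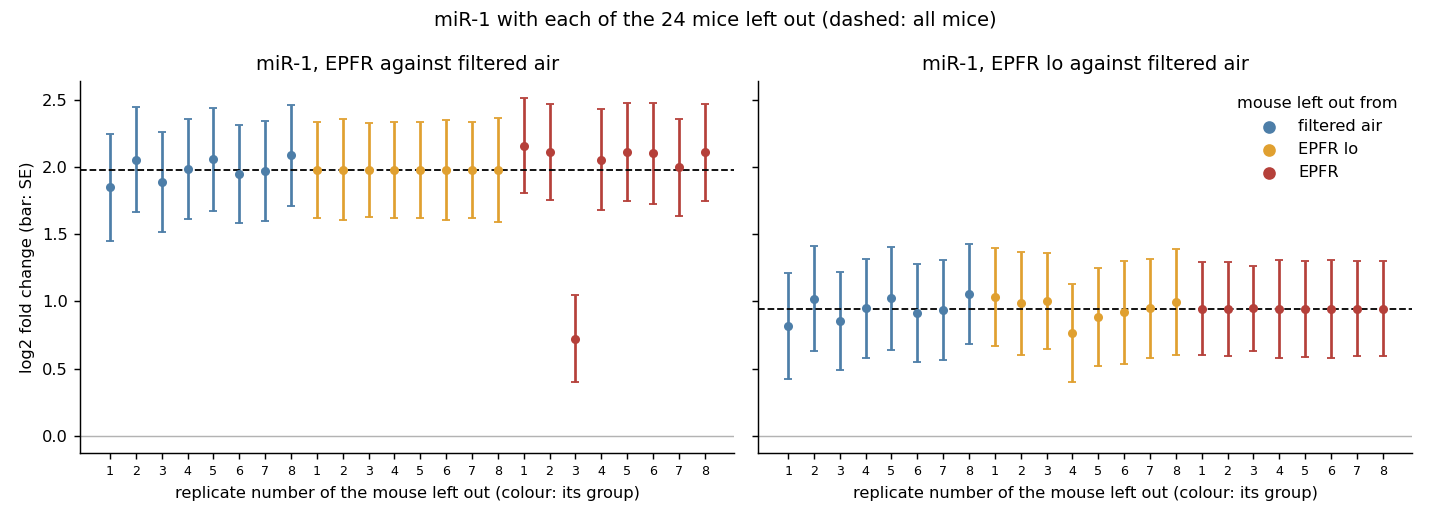
Log2 fold change of miR-1 (bars, standard error from edgeR) with each of the 24 mice left out in turn, colored by the group of that mouse, against the value from all mice (dashed). The left panel holds a single low point, EPFR mouse 3 (0.72), while in the right panel the values run from 0.77 to 1.05.

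Samples were run in several batches that the labels do not assign, and the positive control factor averaged 1.11 in replicates 1 to 4 (0.959 to 1.24) and 0.923 in replicates 5 to 8 (0.790 to 1.07), overlapping sets whose split was chosen after their values were seen. Each set holds 4 mice of every group. In EPFR against filtered air the log2 fold change of miR-1 was 2.85 in replicates 1 to 4, which hold mouse 3, and 0.68 in replicates 5 to 8 (adjusted p = 0.997, edgeR). In EPFR lo it was 1.17 and 0.76, beside medians over all miRNA of 0.53 and -0.27 in the same sets. miR-1 was thus above the median of all miRNA within both sets in EPFR lo.

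Among 4 sample measures, the level of the ligation positive controls moved with the groups. The ligation positive controls, synthetic RNA that reads the tagging step, differed by 1.52 on the log2 scale between EPFR and filtered air mice (exact permutation p = 0.000622, two-sided) and by 0.99 between EPFR lo and filtered air mice (exact permutation p = 0.0634). Summed mouse miRNA counts differed by 0.16 and 0.34 on the log2 scale (exact permutation p = 0.491 and 0.213), the housekeeping factor by 0.12 and 0.15 (exact permutation p = 0.582 and 0.563) and miR-451 relative to miR-23a, which reads red blood cell lysis, by -0.05 and -0.18 (exact permutation p = 0.884 and 0.531). That ratio takes miR-23a as steady, but miR-23a had log2 fold changes of 0.94 in EPFR and 1.34 in EPFR lo (adjusted p = 0.460 and 0.0428, edgeR). A flat ratio therefore does not show whether lysis differed. By the methods, hemolyzed plasma had been left out. With counts scaled by those controls the log2 fold change of miR-1 was 0.22 in EPFR and -0.22 in EPFR lo, while the median of all miRNA moved to -1.72 and -0.99. With their level as a covariate miR-1 in EPFR had a log2 fold change of 1.76 and an adjusted p of 0.0734 in edgeR. All 10 miRNA of the red blood cell list had positive log2 fold changes in EPFR (median 0.75, 0 of 10 called) and in EPFR lo (median 0.58, 1 of 10 called), where 210 and 389 of all 566 miRNA were positive and 0.707% were called in each, and their summed scaled counts ran from 1003 to 8366 in filtered air mice, 3404 to 10709 in EPFR lo mice and 1694 to 12526 in EPFR mice. In the platelet list 0 of 5 were called, and in the leukocyte list 1 of 7 was called in each comparison with filtered air, and the leukocyte sums ran from 120 to 457, 318 to 580 and 138 to 771 in the same order of groups. The liver sums were 24.7 to 127 in filtered air, 57.9 to 310 in EPFR lo and 60.8 to 281 in EPFR mice. In the liver list 0 of 4 were called in EPFR and 1 of 4 in EPFR lo, miR-122 (1.62, adjusted p = 0.00102, edgeR). miR-122, at a mean of 33.4 counts, was also lower in EPFR than in EPFR lo (-1.33, adjusted p = 0.0369, edgeR), where 0.177% of all miRNA were called. The part of these measures and lists in the miR-1 result was not tested. In plasma the number of releasing cells cannot be told apart from the RNA released per cell.

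miR-133a, a repressor of serum response factor that is made from the same primary transcript as miR-1, stood at background outside EPFR mouse 3. Raw counts ran from 11 through 14.5 to 19 in filtered air, from 14 through 17 to 21 in EPFR lo and from 11 through 13 to 101 in EPFR mice. The second highest EPFR mouse had 17 counts, so the groups overlapped almost wholly apart from that mouse. Scaled counts averaged 15.5 ± 5.42, 20.2 ± 7.21 and 26.9 ± 33.9 (mean ± SD, n = 8 each), and 15.1 ± 5.78 in EPFR without mouse 3 (n = 7). The log2 fold change in EPFR was 0.83 (standard error 0.32, adjusted p = 0.460, edgeR), and -0.04 without mouse 3. In EPFR lo it was 0.38 (adjusted p = 1.00, edgeR), and the exact permutation test gave p = 0.161.

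EPFR mouse 3 was the highest of 24 mice in miR-1, miR-133a and miR-208a, and 21st in miR-208b. Its 387 counts of miR-1 were 14.3 times the median of the other EPFR mice (27), and its 101 counts of miR-133a were 8.42 times theirs (12). Among all 566 miRNA those ratios ranked 1st and 3rd, where the median ratio was 1.08. Between and after them, named here once their values were seen, came miR-125b-5p (277 counts, 8.94 times), miR-199a-3p (117 counts, 6.88 times) and miR-199a-5p (44 counts, 4.40 times). miR-208a had 73 counts (2.21 times), miR-499 had 24 (1.85 times), miR-206 had 18 (1.5 times a median of 12), miR-133b had 10 (1.11 times) and miR-208b had 3 (0.60 times). The close relatives of the high pair, miR-206 and miR-133b, lay below the highest negative control of that mouse. It ranked 3rd of 24 mice in raw miR-206 and 15th in miR-133b. Its deposited normalized value of miR-206, 7.09, was the highest of 24 mice. Its 22152 counts of mouse miRNA were near the top of the range, 9 of the 41 above-background miRNA were highest in it, and its red blood cell sum of 12526 was the highest of 24 mice.

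**Figure D4:**
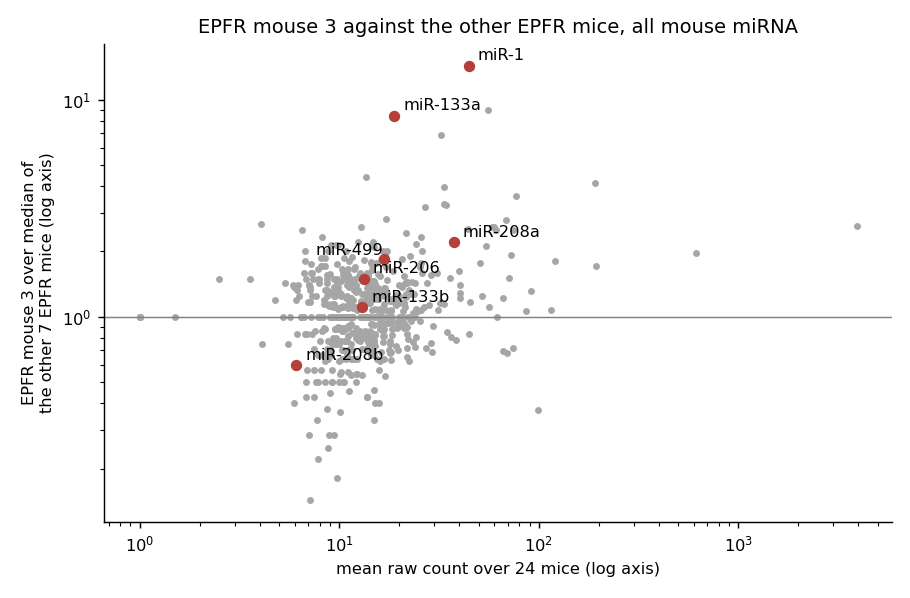
Raw count of EPFR mouse 3 divided by the median of the other 7 EPFR mice for each of 566 miRNA (log axis), against the mean raw count over 24 mice (log axis), with the 7 members in red. miR-1 (14.3) and miR-133a (8.42) lie above nearly all other miRNA, and miR-206, miR-133b and miR-208b lie among the bulk.

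miR-206, which promotes skeletal muscle differentiation and the repair of nerve to muscle contacts, had log2 fold changes near 0 in both particle groups. Raw counts ran from 8 through 15 to 21 in filtered air, from 7 through 15 to 18 in EPFR lo and from 6 through 13 to 18 in EPFR mice. The groups overlapped throughout, below the highest negative control of every mouse. Log2 fold changes were -0.13 in EPFR (standard error 0.33) and -0.0037 in EPFR lo (standard error 0.31), with exact permutation p = 0.662 and 0.955.

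miR-133b, its neighbor on the chromosome, had a higher mean in EPFR lo mice but lay below the highest negative control in all 24 mice. Raw counts ran from 7 through 10 to 18 in filtered air, from 13 through 14.5 to 20 in EPFR lo and from 8 through 9.5 to 20 in EPFR mice. The 13 counts of the lowest EPFR lo mice were above the filtered air median, yet the ranges overlapped. Scaled counts averaged 12.1 ± 5.28, 17.6 ± 4.63 and 13.4 ± 6.78 (mean ± SD, n = 8 each). The log2 fold change in EPFR lo was 0.55 (standard error 0.33, adjusted p = 1.00, edgeR), with an unadjusted exact permutation p of 0.0429, the only member besides miR-1 below 0.05 in that test. EPFR lo mice 1, 2 and 4 had the highest scaled counts of their group (21.6 each), from 13 raw counts and the floor-set factor of 1.66. Within replicates 1 to 4 and 5 to 8 the log2 fold change in EPFR lo was 1.00 and 0.15, beside medians over all miRNA of 0.53 and -0.27. In EPFR mice it was 0.16.

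The miRNA of the myosin genes did not pass in any comparison. miR-208a, a heart miRNA from Myh6 that is needed for the stress response of the myosin genes in mice, had raw counts from 16 through 34 to 56 in filtered air, from 19 through 38.5 to 58 in EPFR lo and from 21 through 36.5 to 73 in EPFR mice. Its groups overlapped almost entirely. It passed the mouse's own highest negative control in 4 filtered air, 4 EPFR lo and 6 EPFR mice, while 1 of the negative control probes itself averaged 29.0 counts, so the level of miR-208a was hardly told from background. Log2 fold changes were 0.17 in EPFR (standard error 0.33, exact permutation p = 0.532) and 0.13 in EPFR lo (standard error 0.33, exact permutation p = 0.626).

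miR-208b, which is made with slow myosin from Myh7, was the lowest member. Its counts ran from 3 through 7.5 to 11 in filtered air, from 3 through 5.5 to 10 in EPFR lo and from 2 through 5 to 9 in EPFR mice. These lie below the mean of the negative controls, and the groups overlapped. miR-499, which acts with miR-208b toward slow fiber genes in mouse muscle, ran from 11 through 15.5 to 25 in filtered air, from 11 through 17.5 to 30 in EPFR lo and from 10 through 14 to 24 in EPFR mice. Only 1 mouse, EPFR lo mouse 6, passed its own highest negative control for miR-499. In EPFR against filtered air log2 fold changes were -0.40 (standard error 0.34) for miR-208b and -0.08 (standard error 0.32) for miR-499, and in EPFR lo they were -0.23 and 0.34. Exact permutation p ran from 0.231 to 0.794 over these 4 comparisons, so no difference was detectable at this depth.

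To test whether neighboring genes moved together in plasma, 3 pairs were correlated over 24 mice on log2 counts scaled by the positive controls. For miR-1 and miR-133a Pearson's r was 0.79 (permutation p = 0.00488, 0.0146 after Benjamini-Hochberg over 3 pairs) and Spearman's rho was 0.32 (permutation p = 0.129, adjusted 0.248). Without EPFR mouse 3 alone r was 0.26 and rho was 0.23, so the Pearson relation rests mainly on that mouse. Without the 2 mice farthest from the median of miR-1, EPFR mouse 3 and EPFR lo mouse 6, r was 0.17. Within groups r was -0.15 for filtered air mice, -0.33 for EPFR lo mice and 0.94 for EPFR mice. It was 0.90 in replicates 1 to 4 and 0.49 in replicates 5 to 8. The EPFR group and replicates 1 to 4 both hold EPFR mouse 3. miR-206 and miR-133b had r = 0.05 (permutation p = 0.798) and rho = 0.06 (permutation p = 0.784), and r = 0.09 without the 2 farthest mice. With the housekeeping scaling of the main tests r was 0.61 (permutation p = 0.0019). Under that scaling both members of a pair share the noise of an imprecise factor, which the permutation does not account for. The 0.61 therefore does not show that the 2 miRNA moved together. miR-208a and miR-208b had r = -0.32 (permutation p = 0.130) and rho = -0.29 (permutation p = 0.165), r = -0.14 without the 2 farthest mice, and 0.14 with housekeeping scaling (permutation p = 0.528). Within groups r of these pairs lay between -0.36 and 0.45 and between -0.38 and -0.20. In the sets of replicates 1 to 4 and 5 to 8 the r values were -0.07 and -0.03 for the first of them and -0.45 and 0.28 for the second.

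**Figure D5:**
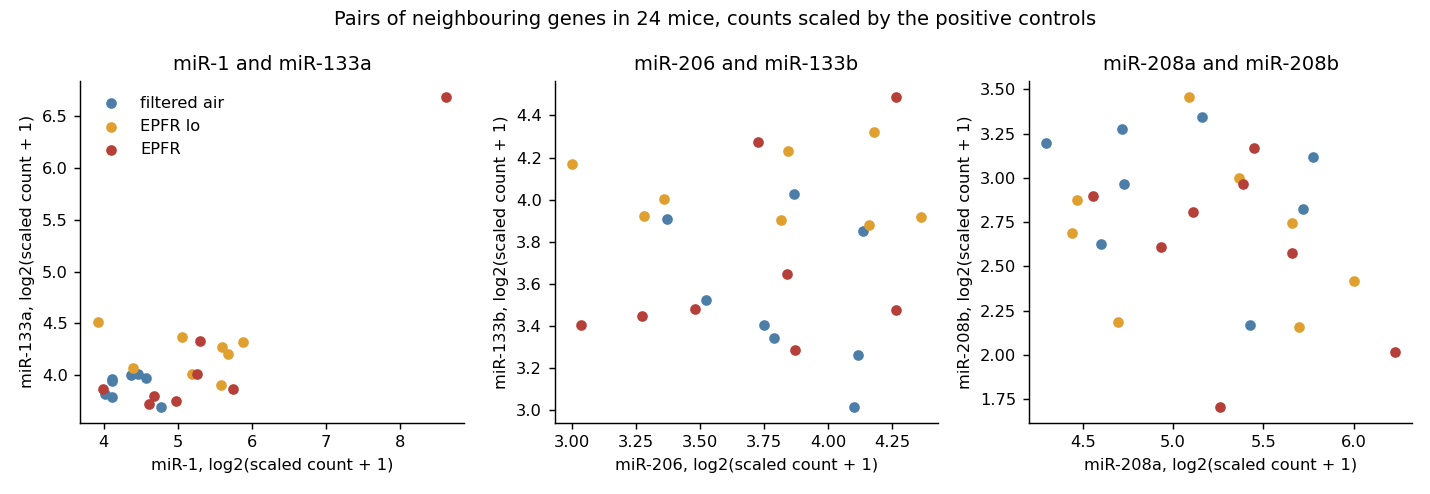
Log2(count + 1), scaled by the positive controls, of 3 pairs of neighboring miRNA genes in 24 mice colored by group. In the panel of miR-1 and miR-133a a single EPFR mouse lies apart at the upper right (r = 0.79 with it among 24 mice), and the points of the other pairs are scattered at this scaling (r = 0.05 and -0.32).

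Over 24 mice the above-background miRNA whose pattern most resembled that of miR-1, with positive-control scaling, were miR-16 (Spearman's rho 0.81), miR-21 (0.81) and miR-125b-5p (0.77), and without EPFR mouse 3 these were 0.79, 0.78 and 0.74. With housekeeping scaling the order was miR-23a (0.82), miR-16 (0.79), miR-25 (0.79) and miR-125b-5p (0.77). These rank correlations are a description, since all miRNA of a mouse share its RNA input and ligation. The likeness to miR-208a, the other member above background, was 0.35.

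Of 26 further miRNA studied in heart or skeletal muscle, most of them made in many tissues, 0 rose or fell in EPFR and 1 rose in EPFR lo, beside 0.707% of all miRNA called in each comparison. Their median log2 fold change was 0.14 in EPFR beside -0.09 over all miRNA, and 0.30 in EPFR lo beside 0.11. The miRNA that passed was miR-23a (1.34, standard error 0.37, adjusted p = 0.0428, edgeR), which restrains muscle atrophy genes in mice. In EPFR the smallest p belonged to miR-21 (1.20, standard error 0.36, adjusted p = 0.0869, edgeR), a miRNA of fibroblasts in the stressed heart, and to miR-221 (-0.93, standard error 0.35, adjusted p = 0.433, edgeR), at a background mean of 10.4 counts. In EPFR lo the value of miR-21 was 1.14 (adjusted p = 0.131, edgeR). miR-143 and miR-145, which mark smooth muscle, had log2 fold changes of 0.12 and 0.20 in EPFR and 0.36 and 0.39 in EPFR lo, with 0 of 2 called.

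Summed over the 7 members, scaled counts ran from 50.0 through a median of 123 to 182 in filtered air, from 107 through 150 to 303 in EPFR lo and from 71.7 through 138 to 670 in EPFR mice. The top value was again EPFR mouse 3, and the top EPFR lo value was mouse 4. In that mouse all 4 housekeeping probes were at background, as they were in 4 mice in all, so its factor of 1.66 was set by the floor of the subtraction.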

How the data were processed

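Plasma miRNA of 24 mice was counted on the nCounter mouse panel. The authors deposited raw counts per probe, not scaled, and normalized counts, a signal from nSolver in which the negative-control geometric mean was subtracted and the rest scaled to positive controls and to Actb, B2m, Gapdh and Rpl19. Further deposited tables of the authors' fold changes and p-values were not used. The factors were rebuilt from the raw counts and matched 100% of the deposited normalized values within 2%. In R 4.3.3, the quasi-likelihood F test of edgeR 4.0.16 was run on the raw counts of the 24 mice together, with exposure group in the model, these factors as library scaling and no filter, and p-values were adjusted by Benjamini-Hochberg over 566 miRNA. "Rose" and "fell" are used at an adjusted p under 0.05. Housekeeping probes averaged 11.0 to 17.9 counts, near the negative controls, so the factor (0.576 to 1.66) is imprecise.

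Single members were compared by exact permutation of 8 against 8 mice (12870 regroupings, smallest p = 0.000155) on log2(scaled count + 1), and correlations by 100000 permutations. Alternatives used other scalings, DESeq2 1.42.0, limma 3.58.1 on log2(normalized count + 1), filters, blocks and a ligation covariate. The edgeR step was tested on simulated counts. All 7 members are named. Of the 26 further muscle miRNA, those called or of the 2 smallest p in each comparison with filtered air are named. The members and lists were chosen with earlier results of these data known. Each mouse was assayed once, so p-values reflect the spread between mice together with assay noise, and these cannot be told apart.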

Additional observations from a re-analysis of the deposited data

Results flagged for a closer look

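In 4 of the 21 sets of 8 mice (7 members in 3 groups), the highest mouse lay farther from the next than Dixon's limit of 0.526 of the group's range. Normally distributed values pass that limit at either end in about 1 of 20 groups, and these scaled counts need not be so distributed. EPFR mouse 3 had a scaled count of 420.8 for miR-1 (gap 0.839 of the range) and 109.8 for miR-133a (0.831). EPFR lo mouse 4 had 96.16 for miR-208a (0.728) and 46.42 for miR-499 (0.709), with a scaling factor of 1.66. In raw counts that mouse had 58 for miR-208a, a gap of only 0.154 of the range, and 28 for miR-499, below the 30 of mouse 6, so neither passes the limit unscaled, while the raw gaps of EPFR mouse 3 were 0.888 and 0.933.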

How the results depend on the processing

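miR-1 in EPFR against filtered air passed in 8 of 12 alternatives and with 23 of 24 mice left out in turn, the exception being EPFR mouse 3. All 8 fits included that mouse, and the background filter among them kept miR-1 only through it. DESeq2, also among the 8, was run with its default handling of outlying counts and gave 0.74 (adjusted p = 0.0311). That value lay near the 0.72 of edgeR without the mouse, and whether the DESeq2 call rested on the mouse was not tested. In EPFR miR-1 did not pass with ligation-control scaling, limma on deposited normalized counts (2.34, adjusted p = 0.348), the ligation covariate or the replicate block. In EPFR lo and in EPFR against EPFR lo no member passed in any alternative run, except miR-1 in EPFR lo with DESeq2 (0.88, adjusted p = 0.00806). The cause of these changes was not tested.

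Counts of called miRNA in EPFR, EPFR lo and EPFR against EPFR lo (4, 4 and 1) became 537, 30 and 2 with ligation-control scaling, 9 and 13 with top 100 scaling, 9 and 12 with DESeq2 (first pair of comparisons), and 0, 0 and 0 with limma, where 41, 43 and 16 had an unadjusted p under 0.05. With the ligation covariate they were 0 and 1, with the run set block 7 and 7. In EPFR lo they were 2 with positive-control scaling, 0 with the background filter and 0 without the mice whose housekeeping probes were at background, and in EPFR against EPFR lo they were 0 without those mice and 0 in 2-group fits. edgeR gave 12, 20, 9 and 15 miRNA at an unadjusted p under 0.05 in these 4 fits with 0 calls, and 11 with the ligation covariate. With 1 mouse left out the counts ran from 2 to 9, 1 to 10 and 0 to 1, and the lowest and highest came without EPFR mouse 8 (2), filtered air mouse 6 (9 and 10) and, in EPFR lo, several mice (1).

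Replicate numbers are shared by the groups, but same-numbered mice deviated together with correlations of only -0.25 to 0.61, so they were not taken as pairs. With the replicate block 2 miRNA were called in EPFR and 7 in EPFR lo, and miR-1 in EPFR had a log2 fold change of 1.17 (adjusted p = 0.106, edgeR).

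Signs turned as follows, mostly in members at background. Ligation-control scaling moved the median of all miRNA to -1.72, -0.99 and -0.70 in the 3 comparisons, and gave in EPFR -0.92 for miR-133a, -1.48 for miR-133b and -1.85 for miR-208a, in EPFR lo -0.22 for miR-1, -0.67 for miR-133a, -0.47 for miR-133b, -1.30 for miR-208a and -1.04 for miR-499, and in EPFR against EPFR lo -0.25 for miR-133a and -0.55 for miR-208a. Relative to that median, miR-1 was higher in each. miR-133b, miR-206, miR-208a, miR-208b and miR-499 were called lower in EPFR with this scaling, under which nearly all of the 566 miRNA were called. Those calls are therefore nothing particular to the members. Top 100 scaling (medians -0.30, -0.31 and 0.01) gave in EPFR -0.070 for miR-133b and -0.024 for miR-208a, in EPFR lo -0.038 for miR-133a, -0.30 for miR-208a and -0.13 for miR-499, and in EPFR against EPFR lo 0.089 for miR-206 and 0.049 for miR-208b. limma gave in EPFR 0.20 for miR-206, 0.040 for miR-208b and 0.19 for miR-499, in EPFR lo 0.16 for miR-206 and 0.076 for miR-208b, and in EPFR against EPFR lo 0.042 for miR-206. DESeq2 gave in EPFR against EPFR lo -0.14 for miR-1, -0.21 for miR-133a, 0.077 for miR-206 and 0.021 for miR-208b, and TMM scaling 0.071 for miR-206 and 0.014 for miR-208b. Other turns were 0.14 for miR-499 in EPFR with the ligation covariate, 0.0072 for miR-206 in EPFR lo with the run set block, and, without the mice whose housekeeping probes were at background, -0.0017 for miR-208a in EPFR lo and 0.33 for miR-206 and 0.043 for miR-208b in EPFR against EPFR lo. With housekeeping scaling, where both members of a pair share the noise of the factor, r was 0.61 for miR-206 and miR-133b (permutation p = 0.0019). It was 0.14 for miR-208a and miR-208b.

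With 1 mouse left out, EPFR against filtered air ran from -0.039 to 0.98 for miR-133a, -0.018 to 0.30 for miR-133b, -0.29 to 0.014 for miR-206, -0.027 to 0.36 for miR-208a and -0.22 to 0.077 for miR-499. EPFR lo ran from -0.20 to 0.13 for miR-206 and -0.14 to 0.33 for miR-208a. EPFR against EPFR lo ran from -0.23 to 1.21 for miR-1, -0.42 to 0.61 for miR-133a, -0.24 to 0.064 for miR-206, -0.16 to 0.31 for miR-208a and -0.31 to 0.0049 for miR-208b. Depth limits most members, since the counts of miR-133b, miR-206 and miR-208b never passed, and those of miR-133a and miR-499 passed in 1 of 24 mice each, the mouse's own highest negative control.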
